A study of Mus musculus with 2 samples.

Results

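Collagen chains are the protein subunits of the collagens, the main fibre and sheet proteins of the extracellular matrix. Every deposited gene whose symbol is Col, a type number, the letter a and a chain number was taken as a member, which gave 42 genes of 26 collagen types among 22072 genes in all. They were grouped by type into 11 fibrillar chains (types 1, 2, 3, 5, 11, 24 and 27), 8 basement membrane chains (types 4, 15 and 18) and 23 chains of other types. Whole-lung RNA was compared between 2 pools of C57/BL6 mice, with 1 library each. The knockout pool came from mice with floxed Foxf1 alleles (fl/fl) and Pdgfb-iCreER, and the control pool from mice with the same floxed alleles without that Cre. Pdgfb-iCreER is a tamoxifen-inducible Cre recombinase driven by Pdgfb sequences, which are active in endothelial cells, and Foxf1 encodes a forkhead transcription factor of lung mesenchyme and endothelium. The sources used here give neither the age, sex and number of the mice nor the tamoxifen schedule. Effects of Cre itself and of the Foxf1 deletion cannot be told apart in this pair of genotypes.

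A collagen molecule is a triple helix of 3 chains, either copies of 1 chain or a fixed combination. Fibrillar collagens pack into the tensile fibrils of airway, vessel and alveolar walls, and in lung they are made mainly by fibroblasts and related mesenchymal cells. Type IV collagen forms the sheet of basement membranes, which in the alveolus lies between epithelium and capillary endothelium. Its chains alpha 1 and alpha 2 build the network found in nearly all basement membranes, whereas alpha 3, alpha 4 and alpha 5 build a second network in a few tissues, lung alveoli and kidney glomeruli among them.

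Depth on transcripts was about 10.6 M reads in the knockout pool and 13.5 M reads in the control pool, estimated from coverage. FPKM corrects fragment numbers for transcript length and for library size, so that levels of different chains can be compared per length. Intervals in parentheses after a fold are 95% counting intervals, which leave out differences between mice, pools and library preparations, and no difference here has a replicate check or a test. Foxf1, listed as Foxf1a on chromosome 8 from 123608374 to 123610779 (mm9), had 15.7 FPKM in the knockout pool and 72.1 FPKM in the control pool and was 4.59-fold lower (3.97 to 5.33). The lung surfactant gene Sftpc had 13793 FPKM in the knockout pool and 15925 FPKM in the control pool, and the endothelial gene Pecam1 had 237 FPKM in the knockout pool and 241 FPKM in the control pool, so defining markers of the labelled tissue were present in both libraries. In RNA of a whole organ, fewer cells of a type and less RNA per cell cannot be told apart.

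Sequences are shown for the start regions on which the collagen values below bear. Col4a1 and Col4a2 start next to each other on opposite strands and were both higher in the knockout pool. Col18a1 has 2 start sites whose transcripts differed unequally between the pools, and Col1a2 and Col3a1 are the 2 most abundant fibrillar chains. All are from RefSeq windows of GRCm38.p6, which hold 250 bases before and 50 after a gene's start. The stretch of 78 bases that the Col4a1 and Col4a2 windows share (chr8:11312777-11312854, plus strand) is printed for that pair, and the 250 bases before the start for the rest. That shared stretch is made up only of the 50 bases after each of the Col4a1 and Col4a2 starts, which overlap. Each of its bases thus lies after the start of Col4a1, of Col4a2 or of both, unlike those of the other stretches. These are Col18a1 from its upstream start (chr10:77166531-77166780, minus strand), Col18a1 from its downstream start (chr10:77113706-77113955, minus strand), Col1a2 (chr6:4505368-4505617, plus strand) and Col3a1 (chr1:45311288-45311537, plus strand). Capitals mark the GC box GGGCGG, the CCAAT box (letters CCAAT) and the TATA box (letters TATAAA), each on either strand.
Col4a1 and Col4a2: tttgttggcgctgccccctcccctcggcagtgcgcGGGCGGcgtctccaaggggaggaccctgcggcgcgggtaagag
Col18a1 upstream start: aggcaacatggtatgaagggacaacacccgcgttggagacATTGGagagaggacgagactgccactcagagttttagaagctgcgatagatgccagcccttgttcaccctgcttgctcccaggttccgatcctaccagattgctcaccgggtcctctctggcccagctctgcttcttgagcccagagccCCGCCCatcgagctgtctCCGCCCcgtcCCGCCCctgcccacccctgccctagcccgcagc
Col18a1 downstream start: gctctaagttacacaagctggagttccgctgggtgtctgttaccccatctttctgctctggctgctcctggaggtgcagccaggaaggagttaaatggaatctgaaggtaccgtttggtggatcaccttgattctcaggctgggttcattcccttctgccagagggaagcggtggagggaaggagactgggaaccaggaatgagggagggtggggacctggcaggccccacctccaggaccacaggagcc
Col1a2: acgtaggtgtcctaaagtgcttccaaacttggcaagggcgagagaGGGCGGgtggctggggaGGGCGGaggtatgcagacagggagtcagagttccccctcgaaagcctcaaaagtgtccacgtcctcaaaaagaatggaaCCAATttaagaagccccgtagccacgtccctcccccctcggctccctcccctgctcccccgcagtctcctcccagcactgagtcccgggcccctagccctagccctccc
Col3a1: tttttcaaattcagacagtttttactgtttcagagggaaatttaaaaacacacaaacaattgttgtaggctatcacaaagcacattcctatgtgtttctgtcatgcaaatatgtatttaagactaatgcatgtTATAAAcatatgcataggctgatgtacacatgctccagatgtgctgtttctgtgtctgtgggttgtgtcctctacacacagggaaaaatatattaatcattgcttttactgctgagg

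The stretch shared by Col4a1 and Col4a2 is 73.1% G or C and holds 1 GC box, which lies after both starts. Each of their whole windows also holds 1 CCAAT box outside it. Counting the shared GC box, the whole Col4a2 window holds 3 GC boxes and the whole Col4a1 window 1. The window at the upstream start of Col18a1 holds 3 GC boxes and 1 CCAAT box before the start, and that at the downstream start holds none of the searched motifs there. Col1a2 has 2 GC boxes and 1 CCAAT box before its start, while Col3a1 has 1 TATA box and is 35.2% G or C. Of the collagen chains, 34 matched a RefSeq window, with 37 windows in all, some of which overlap. They include 20 of the 25 chains with a mean FPKM of 1 or more. Col1a1, Col5a2, Col4a3, Col12a1 and Col14a1 have none, and many windows belong to chains with few or no reads. A GC box occurred in 62.2% of these collagen windows and in 35.7% of all 32851 windows, and a CCAAT box in 35.1% and 37.4%. A TATA box occurred in 13.5% of collagen windows and 13.6% of all windows. The forkhead core GTAAACA occurred in 1 collagen window, that of Col6a1, which is 2.7% of them, and in 3.65% of all windows. None of these motifs overlapped another in the printed stretches. A match describes letters in a window and is not evidence of binding.

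Collagen transcripts were more abundant in the knockout pool as a whole. The 42 chains summed to 1540.2 FPKM in the knockout pool and 823 FPKM in the control pool, a ratio of 1.87. Their share of aligned bases was 1.09% in the knockout pool and 0.60% in the control pool. The sum rests on few genes: Col4a1, Col4a2, Col3a1, Col1a2 and Col1a1, the 5 with the highest mean, made up 72.9% of the collagen FPKM in the knockout pool and 66.5% in the control pool. Without the type I and type III chains Col1a1, Col1a2 and Col3a1 the ratio of the sums was 1.69. Fibrillar chains contributed 37% of the collagen FPKM in the knockout pool and 29.2% in the control pool. Basement membrane chains contributed 46.3% of the collagen FPKM in the knockout pool and 48.6% in the control pool, and the other types 16.7% of the collagen FPKM in the knockout pool and 22.3% in the control pool. The fibrillar share was thus the one that was larger in the knockout pool.

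Of the 42 chains, 25 had a mean FPKM of 1 or more over both libraries, the floor used for counts, and each of these 25 also reached 1 FPKM in each library. Members were counted as higher or lower where log2(FPKM + 1) differed by 0.58 or more, which is 1.5-fold on a scale that understates the fold of genes with low values. Among the 25, 11 were higher in the knockout pool and 1 was lower, which is 44.0% and 4.0%. Over all 12929 genes above the same floor, 9.41% were higher and 4.63% lower. At a threshold of 2-fold, 7 of the 25 chains were higher and 0 lower, beside 3.75% and 1.25% of all genes. The median log2 difference of the 25 chains was 0.51, beside 0.05 over all genes. By class, 5 of 7 fibrillar chains were higher and none lower, with a median of 1.16. Among basement membrane chains 3 of 8 were higher and none lower, with a median of 0.05, and among the other types 3 of 10 were higher and 1 lower, with a median of 0.36. Just above the threshold lay Col14a1 at 0.67 and Col6a2 at 0.73 on this scale, and just below it Col6a1 at 0.54 and Col5a3 at 0.51. Counting error alone placed 16 intervals of the FPKM ratio above 1, 5 below 1 and 4 across 1.

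**Figure D1:**
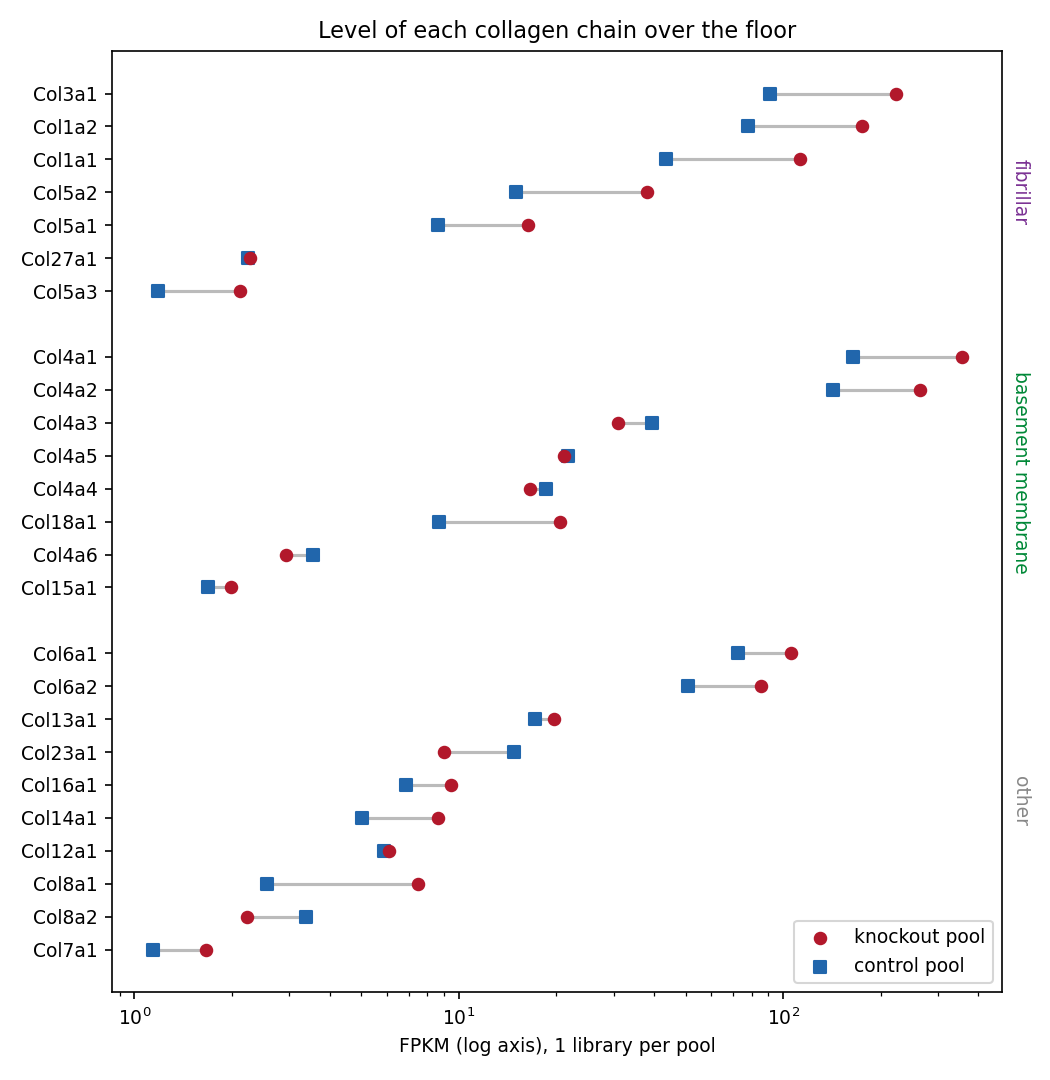
FPKM on a log axis of the 25 collagen chains over the floor, by class and mean level, with circles for the knockout pool and squares for the control pool. Col4a1 is the most abundant chain in both pools, and the 3 type I and III chains lie to the right in the knockout pool, at 113 FPKM or more against 91.2 FPKM or less.

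**Figure D2:**
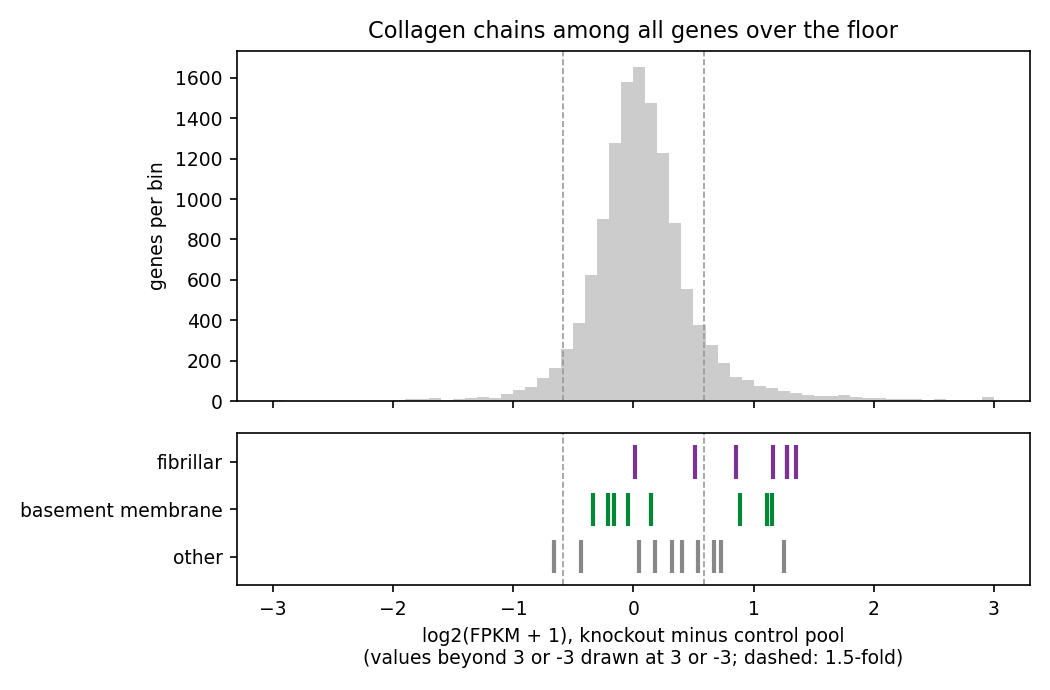
Histogram of the log2(FPKM + 1) difference, knockout minus control pool, over 12929 genes, with 1 tick per collagen chain below it, by class (ticks of near-equal values overlap). Fibrillar ticks lie right of 0, with 5 of 7 beyond the right dashed line at 1.5-fold, while basement membrane ticks fall into a group near 0 and a group near 1.

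The major fibrillar chains were each more than 2-fold more abundant in the knockout pool. Col1a1, which encodes the alpha 1 chain of type I collagen, the main collagen of tendon, bone and scar, had 113 FPKM in the knockout pool and 43.4 FPKM in the control pool and was 2.59-fold higher (2.49 to 2.7). Col1a2, the alpha 2 chain of type I, had 175 FPKM in the knockout pool and 77.7 FPKM in the control pool and was 2.25-fold higher (2.19 to 2.32). Col3a1, whose type III fibrils accompany type I in distensible tissues, had 223 FPKM in the knockout pool and 91.2 FPKM in the control pool and was 2.45-fold higher (2.38 to 2.51). Within the knockout pool Col1a1 ranked 5 among the collagen chains by FPKM, and in the control pool it ranked 7, behind Col6a1 and Col6a2. Among the 12929 genes, Col3a1 ranked 214 in the knockout pool and 529 in the control pool.

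Type V chains copolymerise with type I and limit fibril thickness. Col5a2 had 38 FPKM in the knockout pool and 15.1 FPKM in the control pool and was 2.53-fold higher (2.38 to 2.68), as large a ratio as those of the type I chains. Col5a1 had 16.3 FPKM in the knockout pool and 8.61 FPKM in the control pool and was 1.9-fold higher (1.76 to 2.04), which is less, and the intervals of the pair do not overlap. Col5a3, the rarest chain of the type, had 2.11 FPKM in the knockout pool and 1.18 FPKM in the control pool and was 1.79-fold higher (1.41 to 2.28), although its difference of 0.51 on the log2(FPKM + 1) scale stayed under the 1.5-fold line. Col27a1, a fibrillar chain known from cartilage, had 2.27 FPKM in the knockout pool and 2.24 FPKM in the control pool, within its counting error, and its direction turned under 3 of the other scalings. Thus all but the Col27a1 chain of the 7 fibrillar chains over the floor had counting intervals above equality. The remaining 4 fibrillar chains were below the floor: Col2a1 and Col11a1, chains of cartilage, together with Col11a2 and Col24a1. Col2a1 was listed at 0 in both libraries, and Col11a1 at 0 in the knockout pool and 0.00805 FPKM in the control pool. Col11a2 had 0.384 and 0.496 FPKM in the knockout and control pool, and Col24a1 0.113 and 0.0555 FPKM. Cartilage marker genes were below the floor too: of 7 listed, Acan, Matn1, Lect1 and Comp were at 0 in both libraries.

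**Figure D3:**
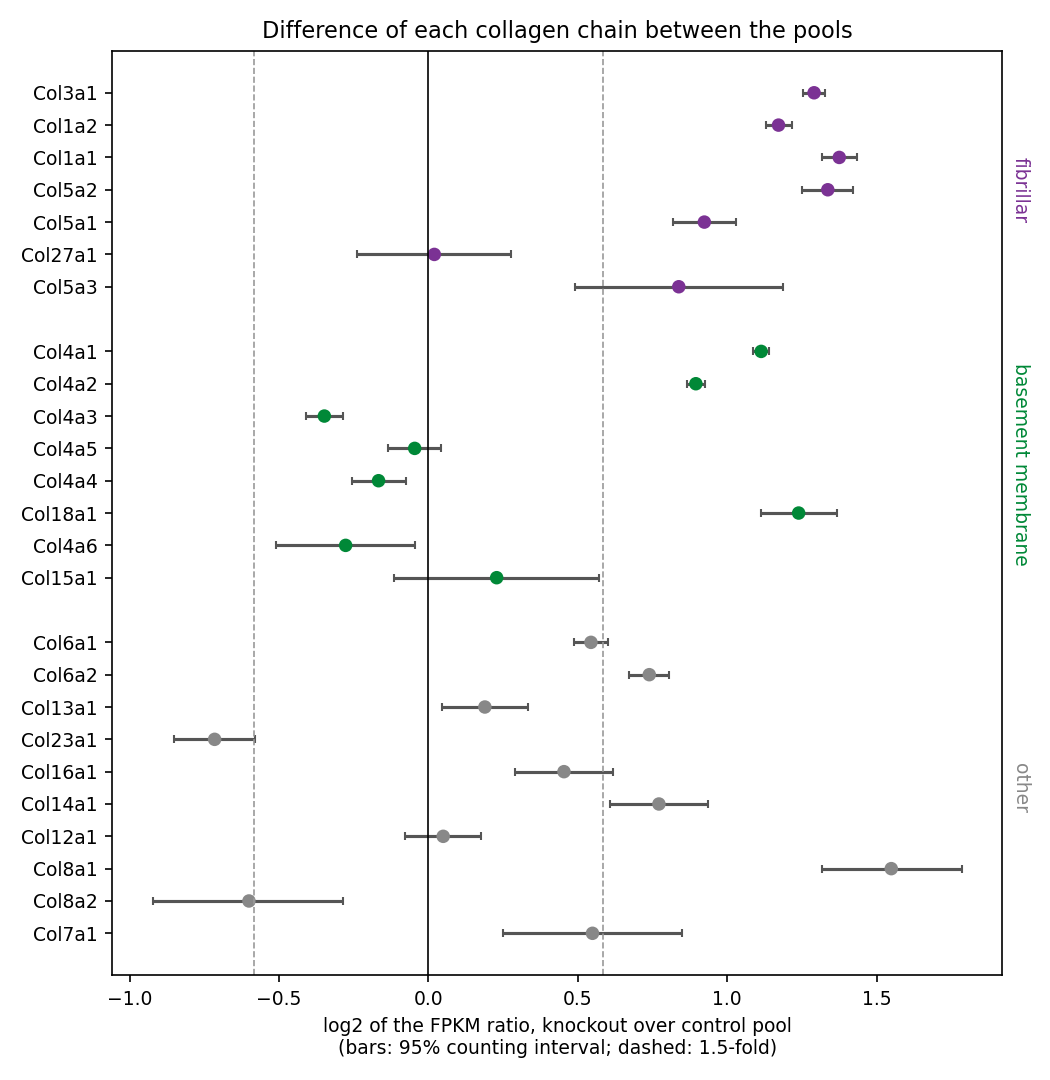
log2 of the FPKM ratio, knockout over control pool, of the 25 chains over the floor, coloured by class, with 95% counting intervals as bars and dashed lines at 1.5-fold. Col8a1 has the highest ratio, 2.93, and within type IV the points of Col4a1 and Col4a2 lie right of the line while those of Col4a3 to Col4a6 lie at or left of 0.

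Type IV collagen split by network. Col4a1, the most abundant collagen transcript in both libraries, had 355 FPKM in the knockout pool and 164 FPKM in the control pool and was 2.16-fold higher (2.12 to 2.2). Col4a2, its partner in the common network, had 264 FPKM in the knockout pool and 142 FPKM in the control pool and was 1.86-fold higher (1.82 to 1.9). Their ranks among the 12929 genes were 100 and 173 in the knockout pool and 289 and 333 in the control pool. The other type IV chains, those of the second network and Col4a6, did not share this difference. Col4a3 had 30.9 FPKM in the knockout pool and 39.3 FPKM in the control pool and was 1.27-fold lower (1.22 to 1.33). Col4a4 had 16.5 FPKM in the knockout pool and 18.6 FPKM in the control pool and was 1.12-fold lower (1.05 to 1.2). Col4a5 had 21 FPKM in the knockout pool and 21.7 FPKM in the control pool, within its counting error, and Col4a6, which pairs with Col4a5 in some basement membranes, was 1.21-fold lower (1.03 to 1.42) at 2.93 and 3.55 FPKM in the knockout and control pool. Each of these 4 stayed within 1.5-fold. Together Col4a3 to Col4a6 made up 4.63% of the collagen FPKM in the knockout pool and 10.1% in the control pool, whereas Col4a1 and Col4a2 made up 40.2% of the collagen FPKM in the knockout pool and 37.2% in the control pool.

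The same split appears as a ratio within each library. Col4a3 to Col4a1 was 0.087 in the knockout pool (0.0839 to 0.0901) and 0.24 in the control pool (0.233 to 0.247). Col4a5 to Col4a1 was 0.0592 in the knockout pool (0.0564 to 0.0622) and 0.132 in the control pool (0.127 to 0.138). Alveolar type 1 cells are a known source of the alpha 3 network, and 5 of their markers summed to 1863 FPKM in the knockout pool and 2216 FPKM in the control pool. Of these markers 1 was at least 1.5-fold lower, Rtkn2, and none was that much higher, beside 4.63% lower and 9.41% higher over all genes. Ager had 1086 and 1218 FPKM in the knockout and control pool, Hopx 467 and 692 FPKM, and Rtkn2 40.7 and 66.8 FPKM. Aqp5 was higher within 1.5-fold, at 180 and 169 FPKM, and so was Pdpn, at 89.2 and 69.6 FPKM. The part of these cells in the lower Col4a3 level was not tested.

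Of the multiplexins, basement membrane collagens with large sugar chains, Col18a1 was higher and Col15a1 was not distinguishable from equal. Col18a1, whose C-terminal fragment is endostatin, had 20.5 FPKM in the knockout pool and 8.69 FPKM in the control pool and was 2.36-fold higher (2.16 to 2.58). Col15a1 had 1.98 FPKM in the knockout pool and 1.69 FPKM in the control pool, within its counting error. The files split Col18a1 into 2 transcripts with starts 52825 bases apart on chromosome 10 (mm9, minus strand, 76514924 to 76629275). The transcript from the upstream start, of 5044 bases, had 11.8 FPKM in the knockout pool and 2.19 FPKM in the control pool, 5.38-fold higher (4.58 to 6.35). The transcript from the downstream start, of 5628 bases, had 8.74 FPKM in the knockout pool and 6.5 FPKM in the control pool, 1.34-fold higher (1.2 to 1.5). The upstream transcript was therefore the more abundant of the pair in the knockout pool and the less abundant in the control pool. They share most exons, so that the authors' division of shared reads decides their values, and the intervals do not cover that step. With the most abundant transcript alone, which over both libraries is the downstream one, the difference of Col18a1 was 0.38 on the log2(FPKM + 1) scale in place of 1.15, and it was no longer counted as higher. The start regions of both are printed above.

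Type VI collagen, which forms beaded filaments around cells, was higher by smaller ratios. Col6a1 had 106 FPKM in the knockout pool and 72.4 FPKM in the control pool and was 1.46-fold higher (1.4 to 1.52). Col6a2 had 85.2 FPKM in the knockout pool and 51 FPKM in the control pool and was 1.67-fold higher (1.59 to 1.75). Their intervals do not overlap, so the pair differed by unequal ratios. Col6a3, the large chain of the common trimer, is not analysed here and is not among the 42 chains of the collagen sums. Col6a4, Col6a5 and Col6a6, related to Col6a3, were below the floor, at 0.0984 to 0.127 FPKM in the knockout pool and 0.0469 to 0.113 FPKM in the control pool.

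The type VIII chains, network collagens of vessel walls and of Descemet's membrane in the eye, went in opposite directions. Col8a1 had 7.49 FPKM in the knockout pool and 2.56 FPKM in the control pool and was 2.93-fold higher (2.49 to 3.45), the highest FPKM ratio of the 25 chains. Col8a2 had 2.22 FPKM in the knockout pool and 3.37 FPKM in the control pool and was 1.52-fold lower (1.22 to 1.9), although on the log2(FPKM + 1) scale its difference was -0.44, under the 1.5-fold line. The ratio of Col8a1 to Col8a2 was 3.37 in the knockout pool (2.76 to 4.13) and 0.759 in the control pool (0.63 to 0.914), so the more abundant chain of the type was Col8a1 in the knockout pool and Col8a2 in the control pool.

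Fibril-associated collagens sit on the surface of fibrils and link them to other matrix. Col14a1, the chain of undulin, had 8.61 FPKM in the knockout pool and 5.04 FPKM in the control pool and was 1.71-fold higher (1.53 to 1.91). Col16a1 had 9.44 FPKM in the knockout pool and 6.89 FPKM in the control pool and was 1.37-fold higher (1.22 to 1.53), and Col12a1 had 6.08 and 5.88 FPKM in the knockout and control pool, within its counting error and lower in the knockout pool under 3 of the other scalings. The remaining 6 chains of this kind, Col9a1, Col9a2, Col9a3, Col19a1, Col20a1 and Col22a1, were below the floor, and the first pair of them was at 0 in both libraries. Col7a1, which builds anchoring fibrils under epithelia, had 1.67 FPKM in the knockout pool and 1.14 FPKM in the control pool and was 1.46-fold higher (1.19 to 1.8).

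The transmembrane collagens over the floor, Col23a1 and Col13a1, lay on opposite sides of equality. Col23a1 had 9.01 FPKM in the knockout pool and 14.8 FPKM in the control pool and was 1.64-fold lower (1.5 to 1.8), and it alone of the 25 chains was counted as lower. Col13a1, a known marker of a lung fibroblast population, had 19.6 FPKM in the knockout pool and 17.2 FPKM in the control pool and was 1.14-fold higher (1.03 to 1.26). Col17a1, a hemidesmosome protein of basal epithelial cells, was below the floor at 0.538 and 0.925 FPKM in the knockout and control pool. Col25a1 was at 0 in the knockout pool and 0.0766 FPKM in the control pool, about 3.39 reads. Col10a1, a chain of growth plate cartilage, and Col28a1, a chain with von Willebrand A domains, completed the chains below the floor, at 0.0248 and 0.0386 FPKM and 0.454 and 0.49 FPKM in the knockout and control pool. Over the 17 chains below the floor, the highest values were 0.725 FPKM in the knockout pool, of Col20a1, and 0.925 FPKM in the control pool, of Col17a1, and Col2a1, Col9a1 and Col9a2 were listed at 0 in both. The gene for the type XXVI chain is listed as Emid2, outside the naming rule, at 0.0814 and 0.0421 FPKM in the knockout and control pool.

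**Figure D4:**
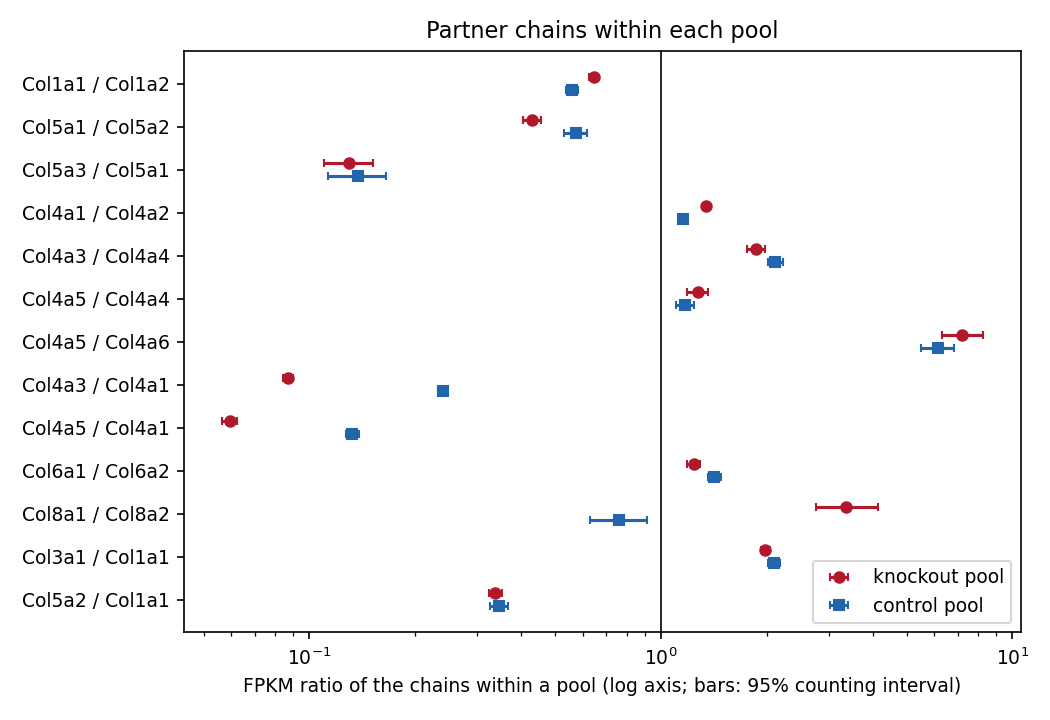
Ratio of the FPKM of partner chains within each pool on a log axis, circles for the knockout pool and squares for the control pool, with 95% counting intervals. Col8a1 over Col8a2 lies on opposite sides of 1 in the pools, and Col4a3 and Col4a5 over Col4a1 are lower in the knockout pool, at 0.087 and 0.0592.

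Partner chains of 1 trimer, type VIII aside, had closer ratios between the pools than the type IV networks had. Type I is built from 2 alpha 1 chains and 1 alpha 2 chain, and the transcript ratio of Col1a1 to Col1a2 was 0.643 in the knockout pool (0.624 to 0.663) and 0.559 in the control pool (0.536 to 0.582), below 1 in both libraries. The common type IV trimer likewise has 2 alpha 1 chains and 1 alpha 2 chain, and Col4a1 to Col4a2 was 1.34 in the knockout pool (1.32 to 1.37) and 1.16 in the control pool (1.13 to 1.18). In both trimers the alpha 1 transcript was thus the one with the larger ratio between the pools. Col4a3 to Col4a4 was 1.87 in the knockout pool (1.76 to 1.98) and 2.12 in the control pool (2.02 to 2.22), and Col4a5 to Col4a4 was 1.27 in the knockout pool (1.19 to 1.36) and 1.17 in the control pool (1.1 to 1.24), whose intervals overlap. Col5a1 to Col5a2 was 0.429 in the knockout pool (0.405 to 0.455) and 0.572 in the control pool (0.53 to 0.616), and Col6a1 to Col6a2 was 1.24 in the knockout pool (1.19 to 1.29) and 1.42 in the control pool (1.36 to 1.48). Across types, Col3a1 to Col1a1 was 1.98 in the knockout pool (1.93 to 2.04) and 2.1 in the control pool (2.02 to 2.19), and Col5a2 to Col1a1 was 0.338 in the knockout pool (0.324 to 0.352) and 0.347 in the control pool (0.327 to 0.368), and the intervals of the pools overlap for both. Col8a1 to Col8a2 is the ratio of partner chains that differed most, by a factor of 4.44.

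Several chain genes are neighbours in the genome, and the ratios of the neighbours over the floor are set side by side here. On chromosome 8 the mm9 records of Col4a1 (11198423 to 11312826) and Col4a2 (11312829 to 11449287) are separated by 2 bases, and their FPKM ratios were 2.16 and 1.86. The GRCm38.p6 windows used above instead place the starts of this pair so that the transcripts overlap. On chromosome 1 Col4a4 ends 71 bases before Col4a3 begins (82447298 to 82583424 and 82583496 to 82718634), with ratios of 0.891 and 0.785. On chromosome X Col4a6 and Col4a5 lie 1342 bases apart (137599946 to 137908619 and 137909962 to 138123778), with ratios of 0.825 and 0.968. Col3a1 and Col5a2 lie 24624 bases apart on chromosome 1 (45368383 to 45406551 and 45431176 to 45560127), with ratios of 2.45 and 2.53. Col6a2 and Col6a1 lie 85387 bases apart on chromosome 10 (76058501 to 76086149 and 76171537 to 76188789), with ratios of 1.67 and 1.46. In each of these 5 pairs both genes lay on the same side of equality, and for Col4a5 the interval reached across it. The ratios were not equal within all pairs. Intervals did not overlap for Col4a1 and Col4a2, for Col4a4 and Col4a3, or for Col6a2 and Col6a1.

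Of the genes that process collagen, Adamts2, Loxl1, Fkbp10, Loxl2, Lox, Pcolce and Crtap were higher in the knockout pool and P4ha1 was lower. Newly made chains are hydroxylated on proline and lysine and folded in the endoplasmic reticulum with chaperones, trimmed of their propeptides outside the cell and cross-linked by lysyl oxidases. Of 35 such genes found in the files, 30 were over the floor, of which 7 were higher and 1 was lower, beside 9.41% higher and 4.63% lower over all genes, with a median log2 difference of 0.31. The propeptidase gene Adamts2, which removes the N-terminal propeptide of fibrillar collagens, had 21.9 FPKM in the knockout pool and 8.91 FPKM in the control pool and was 2.46-fold higher (2.22 to 2.73). The propeptidase enhancer gene Pcolce had 137 FPKM in the knockout pool and 82.2 FPKM in the control pool and was 1.67-fold higher (1.58 to 1.77), whereas its relative Pcolce2 was 1.42-fold lower (1.35 to 1.5), short of the 1.5-fold line. Of the lysyl oxidase genes, which catalyse the cross-links, Lox had 41.6 FPKM in the knockout pool and 20.8 FPKM in the control pool and was 2.0-fold higher (1.87 to 2.15). Loxl1 was 2.22-fold higher (2.07 to 2.37) and Loxl2 was 2.03-fold higher (1.85 to 2.24). Loxl3 at 3.94 and 2.34 FPKM and Loxl4 at 1.64 and 1.33 FPKM in the knockout and control pool stayed under the line on the log2(FPKM + 1) scale.

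The prolyl isomerase gene Fkbp10 was 2.22-fold higher (1.96 to 2.5) and Crtap, a subunit of the prolyl 3-hydroxylase complex, was 1.56-fold higher (1.42 to 1.73). The most abundant genes of the list were less different. Serpinh1, the collagen-specific chaperone HSP47, had 249 FPKM in the knockout pool and 180.2 FPKM in the control pool and was 1.38-fold higher (1.34 to 1.43). P4hb, the beta subunit of prolyl 4-hydroxylase, was 1.3-fold higher (1.25 to 1.34) and Ppib, which encodes cyclophilin B, was 1.35-fold higher (1.27 to 1.42). The catalytic subunit gene P4ha1 went the other way, with 22.4 FPKM in the knockout pool and 35 FPKM in the control pool, and was 1.56-fold lower (1.46 to 1.68), while P4ha2 had 26.2 and 28 FPKM in the knockout and control pool, within its counting error. Prolyl 4-hydroxylase subunits thus lay on both sides of equality.

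Of 10 collagen receptor genes, 8 were over the floor, and 1 of them was higher and none lower, with a median log2 difference of 0.24. With 8 genes, a single one is near the 9.41% of all genes that were higher. Mrc2, the endocytic receptor that takes up collagen fragments, had 39.7 FPKM in the knockout pool and 19.9 FPKM in the control pool and was 1.99-fold higher (1.88 to 2.11). Itgb1, the shared beta chain of the collagen-binding integrins, was the most abundant at 259 and 211 FPKM in the knockout and control pool and was 1.23-fold higher (1.2 to 1.26). Of the discoidin domain receptors, kinases that bind collagen, Ddr1 was 1.27-fold higher (1.16 to 1.39) and Ddr2 was 1.17-fold higher (1.1 to 1.24). Itga1 was 1.15-fold higher (1.08 to 1.23), and Itga10, the least abundant of the 8 and the one with the lowest ratio, was 2.07-fold lower (1.45 to 3.01) at 0.66 and 1.37 FPKM in the knockout and control pool. On the log2(FPKM + 1) scale its difference was -0.51, under the 1.5-fold line, so it was not counted as lower. Below the floor were Itga11, at 0.345 and 0.331 FPKM in the knockout and control pool, and the platelet collagen receptor Gp6, at 0.138 and 1.07 FPKM and 7.81-fold lower (1.94 to 65.6) on about 2.06 reads in the knockout pool.

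**Figure D5:**
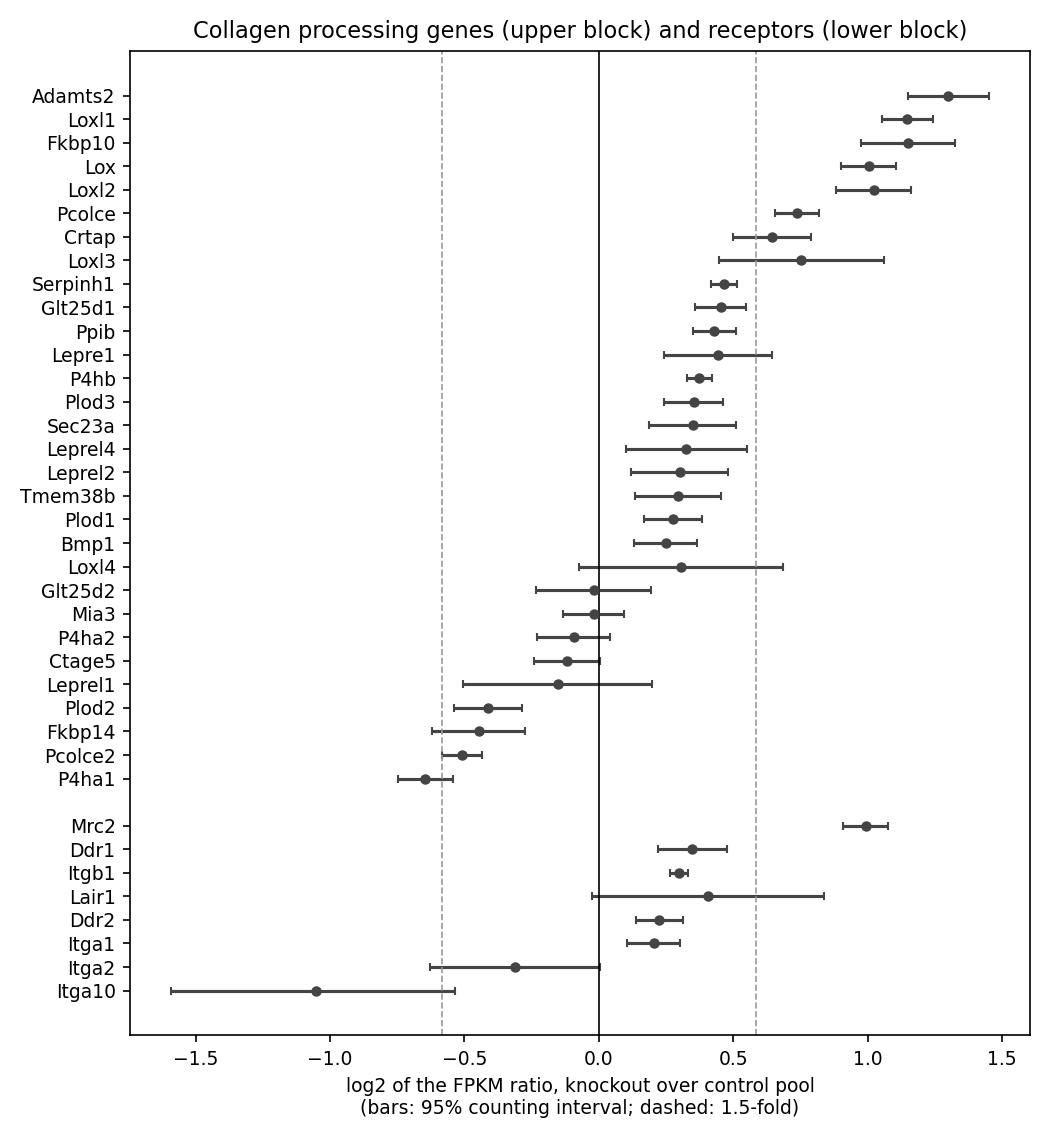
log2 of the FPKM ratio, knockout over control pool, of collagen processing genes (upper block, 30 genes) and collagen receptors (lower block, 8 genes) over the floor, with 95% counting intervals and dashed lines at 1.5-fold. Adamts2, the lysyl oxidase genes Loxl1, Lox and Loxl2, and Fkbp10 lie furthest right in the upper block and Mrc2 in the lower one.

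Markers of cells that make collagen differed in different ways, and their counts are to be read beside the 9.41% higher and 4.63% lower of all genes. The 10 fibroblast markers summed to 2134 FPKM in the knockout pool and 2119.6 FPKM in the control pool, with a median log2 difference of 0.09. Of them 1 was higher, Mfap4, and 1 lower, Inmt, so that the share of higher fibroblast markers was near that of all genes. These are the most abundant of the list and differed in opposite directions. Mfap4 had 984 and 424 FPKM and Inmt 626 and 1189 FPKM in the knockout and control pool. The near-equal sum therefore does not mean level markers, and 5 of the 10 were above equality and 5 below. Among those below, Pi16 was 1.58-fold lower (1.26 to 1.99), but its log2(FPKM + 1) difference of -0.55 stayed under the line. Pdgfra, a general marker of lung fibroblasts, had 65.1 and 52.3 FPKM in the knockout and control pool, and Tcf21 had 55.9 and 59.6 FPKM. The 6 smooth muscle and myofibroblast markers summed to 401 FPKM in the knockout pool and 195 FPKM in the control pool, with 3 higher and none lower, Acta2 and Tagln among them. The 6 pericyte markers summed to 143 FPKM in the knockout pool and 91.8 FPKM in the control pool, with 2 higher and none lower. Of these 6, 5 lay above equality and 1 below, Kcnj8. Its FPKM ratio was 1.58-fold lower (1.16 to 2.19), but its log2(FPKM + 1) difference of -0.48 stayed under the line. The 5 mesothelial markers summed to 223 FPKM in the knockout pool and 137 FPKM in the control pool, with 3 higher and none lower. Those 3 were Msln, Lrrn4 and Krt19. Most of both sums came from Krt19 alone, at 136 and 80.2 FPKM in the knockout and control pool. The 6 endothelial markers summed to 914 FPKM in the knockout pool and 886 FPKM in the control pool, with 2 higher and 1 lower. The higher ones were Emcn, at 153 and 30 FPKM, and Kdr, at 103 and 65.8 FPKM in the knockout and control pool. Cldn5 was lower, at 150 and 263 FPKM, so the near-equal sum does not mean level markers. All 8 cell cycle markers were higher and summed to 239 FPKM in the knockout pool and 60.1 FPKM in the control pool. The part of each of these groups of cells in the collagen differences was not tested.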

How the data were processed

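Each library holds lung RNA pooled from multiple mice of 1 genotype, per the labels, and its genotype label gave its group. The authors deposited FPKM values and coverage (aligned bases per transcript base) for 28107 RefSeq transcript records, per the file headers. Per the submitters' processing notes the build was mm9, and these notes name DESeq without giving its role. For the aligner and the quantification tool, neither name nor version was found in the sources used here. All 47 records of collagen chains had the status OK in both libraries.

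FPKM was summed over the records of a gene. Differences are log2(FPKM + 1) of the knockout pool minus that of the control pool, and folds of single genes are plain FPKM ratios. Reads were approximated as coverage times length divided by the bases that 1 read adds, whose mode over genes with 1 record was 46.7 in the knockout pool and 46.6 in the control pool. The interval of a ratio is the conditional Clopper-Pearson interval of these approximate reads. It was tried only on simulated counts drawn from the model that it assumes. That trial says nothing of errors in the approximated or divided reads. Record starts are printed counted from 1. Reads that related chains share could have been divided differently by the authors' tool. With 1 library per genotype no p-value was computed. Members and lists were chosen with earlier results of these data known, and the rule named every chain over a mean of 1 FPKM. It also named, of the processing and receptor genes, those 1.5-fold apart, both extremes and the 4 most abundant, and a few more were named after their values were seen. Alternatives were other pseudocounts, floors, scalings and transcript choices. Python 3.11.15, pandas 2.3.3, numpy 2.4.6, SciPy 1.17.1 and matplotlib 3.10.9 were used.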

Additional observations from a re-analysis of the deposited data

How the results depend on the processing

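No paired analysis was possible because each genotype has 1 library, and no library could be left out. The number of chains at least 1.5-fold higher was between 10 and 12 under all alternatives that kept that threshold (10 with the most abundant transcript of each gene, where Col18a1, at 0.38, was not counted), and at a fold of 2 it was 7 higher and 0 lower. The single lower chain, Col23a1, was counted under all of these except a pseudocount of 3 (0 lower) and the fold of 2. With a pseudocount of 3 the median log2 difference of the chains over the floor was 0.33. Without a floor, which adds chains near 0, it was 0.069 over chains with any reads, 0.68 over fibrillar and 0.042 over other types. With a floor of 5 FPKM it was 0.73, and 0.42 over basement membrane chains. The median of basement membrane chains was -0.02 when scaled to the total without the 100 most abundant genes. The ratio of summed FPKM was 1.69 without Col1a1, Col1a2 and Col3a1. Of 175 values of single chains, 25 chains under 7 settings, 7 left their side of equality, from 3 chains, Col27a1, Col12a1 and Col4a5. Chains with about 100 to 300 reads, such as Col8a2, Col7a1, Col5a3 and Col15a1, have wide counting intervals.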
